A study of Medicago sativa with 15 samples.

Results

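Genes of the alfalfa root that stood highest after 24 h of alkaline stress, and in no other library of the time course, are described here. Alfalfa (Medicago sativa) is a perennial forage legume, and the RNA came from seedling roots. The groups were roots under normal conditions (control) and roots kept under alkaline stress, NaHCO3 at 50 mmol/L, for 4, 8, 12 or 24 h, with 3 libraries in each group. A gene was taken when its mean at 24 h was at least 5 CPM (counts per 1000000 counts of the library) and its lowest CPM + 1 at 24 h was at least 2 times the highest CPM + 1 of the 12 other libraries. Of 164632 genes, 102 met this rule. The genes were thus chosen by their CPM at 24 h and by the highest CPM elsewhere, and both are described without a test.

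Sodium bicarbonate raises the pH and the bicarbonate and sodium around a root. At high pH iron and phosphate become poorly soluble, and roots are known to answer with proton pumping, release of organic acids and changed ion transport. The deposited tables give IDs without names, and matching to the RefSeq gene table of the Bolivia_mono assembly placed 0 of the 102, so which functions these genes serve is not known here. For the same reason the root label was not set against marker genes. At most 4 IDs are printed, and other genes are told apart by their coding length and their rank. The 2 IDs printed for high values are the gene with the highest mean CPM at 24 h and the one farthest above the other libraries, and the 2 printed for low values are the genes with the lowest mean log2 fold change against control before 24 h among those called lower.

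The libraries held 6863315 to 15180708 counts, and 7277241, 12500077 and 14655976 at 24 h in replicates 1, 2 and 3. At most genes with at least 300 counts in the group, the value of 1 library per stressed group fell inside the range of the remaining 2. That library was replicate 2 at 4 h (79.0% of such genes), replicate 3 at 8 h (75.6%), replicate 1 at 12 h (79.3%) and replicate 1 at 24 h (72.1%), while the 11 other libraries had 9.81% to 38.8%. These 4, called intermediate libraries, also had the lowest totals. At 24 h, replicate 1 lay between replicates 2 and 3 at 62 of the 102 genes, so a condition on all 3 libraries asks little more than a condition on replicates 2 and 3. Whether replicates were separate plants is not stated, so p-values cover only library-to-library spread, possibly technical. Whether the intermediate libraries are independent of the others in their group was not tested. Tests on all 15 libraries count them as separate replicates, and understate the spread within a group if they are not independent. Such tests also take the spread of each gene from all 5 groups, so the 24 h libraries used to choose the genes enter it. The control has no sampling time, so hours of stress and time of sampling cannot be told apart.

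At 24 h 25725 genes had a mean of at least 5 CPM. Of these, 6749 had their highest group mean at 24 h, 1075 had all 3 of the 24 h libraries above every other library, and 102 (0.397%) met the rule. The same rule gave 951 control genes (3.48% of genes with at least 5 CPM in that group), 155 for 4 h (0.606%), 28 for 8 h (0.110%) and 50 for 12 h (0.184%). Without the 4 intermediate libraries it gave 119 genes for 24 h, of which 101 were among the 102, and 973, 183, 48 and 56 for control, 4 h, 8 h and 12 h. The number for 24 h was 261 without 24 h replicate 2 and 308 without 24 h replicate 3. The gene nearest above the limit had a ratio of 2.02 and the nearest below it a ratio of 2.00 when rounded. Between 1.8 and 2 lay 33 genes, and between 2 and 2.2 lay 23 of the 102. The lowest mean among the 102 was 5.55 CPM, and 17 more genes had the ratio but less than 5 CPM, the highest of them with 4.65 CPM. The ratio had a median of 2.59, was at least 3 in 37 genes and at least 4 in 19, and reached 14.5 in 1 gene.

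**Figure D1:**
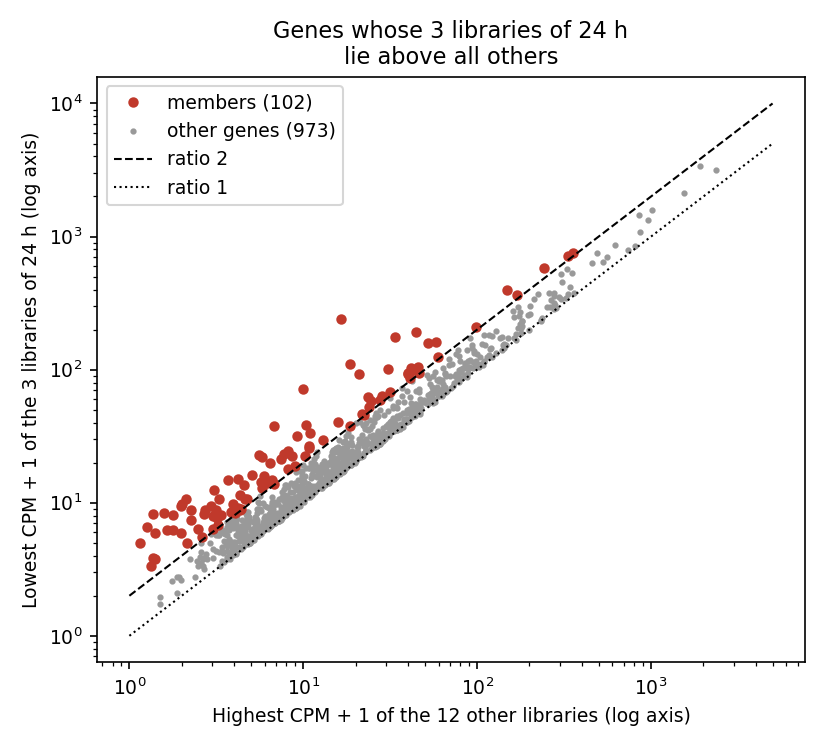
Lowest CPM + 1 of the 3 libraries of 24 h against the highest CPM + 1 of the 12 other libraries, both on log axes, for the 1075 genes with at least 5 CPM whose 24 h libraries lie above all others. The 102 genes taken lie above the dashed line of ratio 2, most of them close to it, and 1 stands far above at a ratio of 14.5.

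The 102 genes together took nearly the same share of the reads in the 3 libraries of 24 h and a smaller one in every other library. In RNA from whole roots, a larger number of cells that express a gene and more RNA per cell cannot be told apart. Their summed CPM was 8337, 8291 and 8268 in 24 h replicates 1, 2 and 3, which is 0.834%, 0.829% and 0.827% of the counts. In the control libraries the sum was 729, 593 and 610 CPM in replicates 1, 2 and 3, and at 4 h it was 674, 822 and 874 CPM. The 8 h and 12 h libraries were uneven, with 1667, 783 and 1212 CPM at 8 h and 1210, 647 and 1903 CPM at 12 h. The sums of the 24 h libraries overlap with no other library, as the rule makes them. Group means were 644 ± 74.2 CPM for control, 790.3 ± 104 for 4 h, 1221 ± 442 for 8 h, 1253 ± 630 for 12 h and 8299 ± 34.8 for 24 h (SD, n = 3 each). The 4 genes with the most reads made up 37.6% of the sum at 24 h, and the 10 with the most reads 58.1%.

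**Figure D2:**
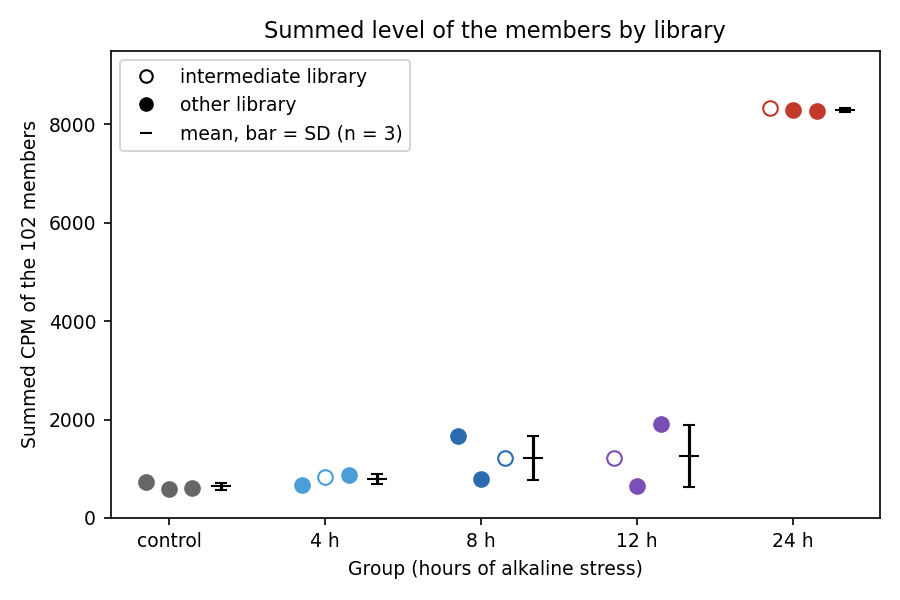
Summed CPM of the 102 genes in each library, by group, with open points for the intermediate libraries and the group mean with its SD beside the points (n = 3). The 24 h libraries lie between 8268 and 8337 CPM, and the others between 593 and 1903 CPM, with the widest spread at 8 h and 12 h.

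On a scale that takes account of gene length, the 102 genes were little expressed outside 24 h and above the typical gene at 24 h. Their median FPKM (counts over gene length and library total) was 0.733 (control), 1.14 (4 h), 2.21 (8 h), 1.86 (12 h) and 23.7 (24 h). For all 25725 genes with at least 5 CPM at 24 h the median FPKM stayed between 10.1 and 12.5 over the 5 groups. At 24 h 3 of the 102 were among the 100 genes with the highest FPKM, and 11 among the 1000 highest. The 3 had short coding lengths of 213, 300 and 339 nt and 2041, 1258 and 1998 FPKM at 24 h.

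The 3 libraries of 24 h resembled one another at most of these genes, which the condition on the lowest library favours. The highest 24 h library was within 1.5 times the lowest in 55 of the 102 genes and more than 2 times the lowest in 24. Replicate 2 was the highest in 41 genes and the lowest in 42, and replicate 3 was the highest in 35 and the lowest in 46. The coefficient of variation at 24 h had a median of 19.3%, beside 30.1% for all genes with at least 5 CPM at 24 h.

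**Figure D3:**
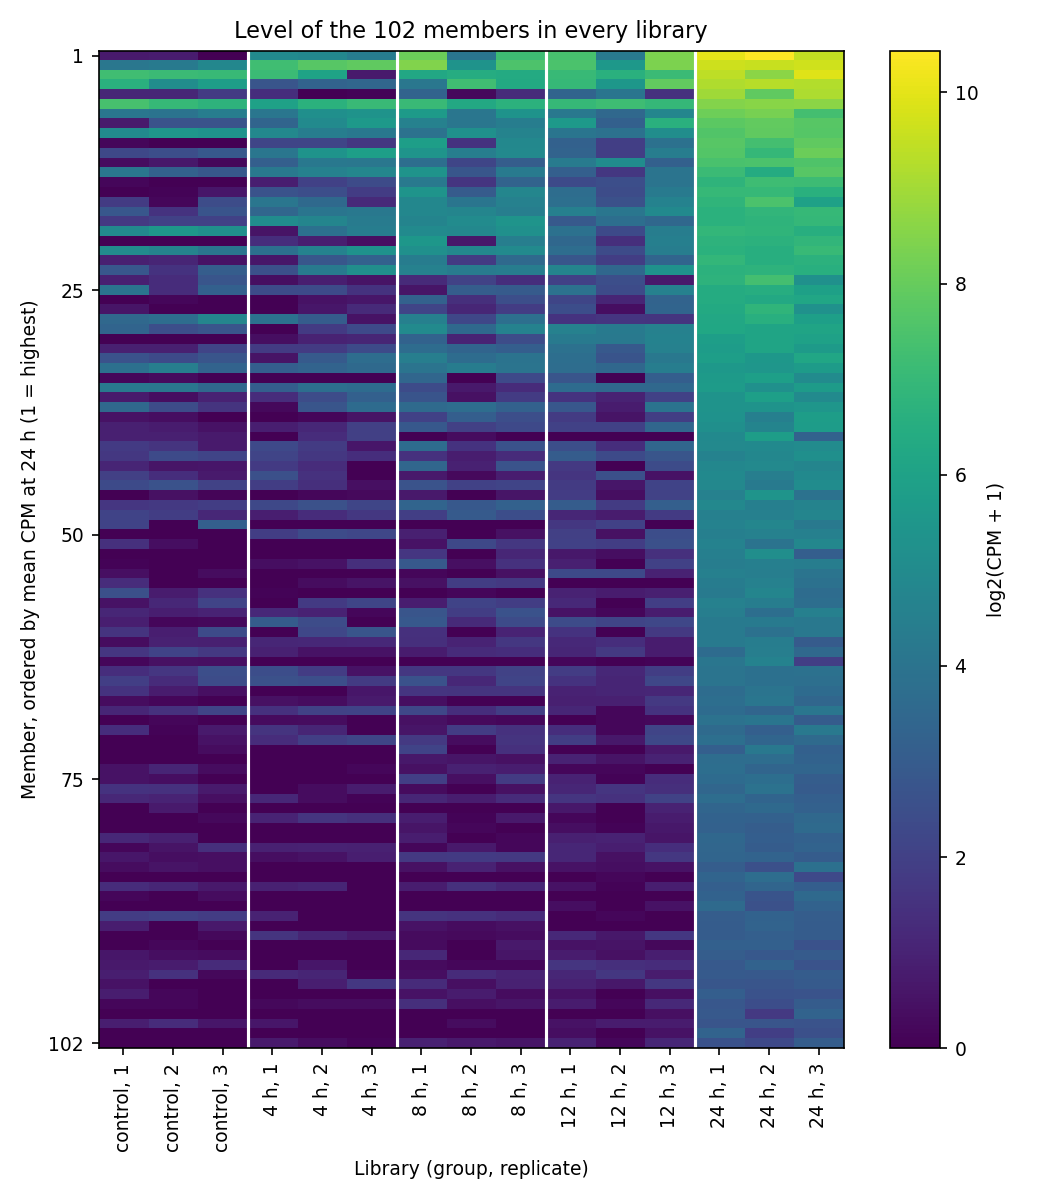
Level of each of the 102 genes (rows, from the highest mean CPM at 24 h at the top to the lowest) in each of the 15 libraries (columns), as log2(CPM + 1). The 3 columns of 24 h are high in every row, while 8 h replicate 1 and 12 h replicate 3 are the next brightest columns in many rows.

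MS.gene57365 (coding length 1413 nt) took the most reads of the 102 at 24 h, with 1051, 1383 and 709 CPM in replicates 1, 2 and 3. In the controls it was nearly absent, with 0.701, 0.740 and 0 CPM. The 4 h libraries had 30.7, 27.4 and 19.7 CPM. At 8 h the libraries had 270, 15.8 and 144 CPM, and at 12 h 167, 17.9 and 332 CPM. Every stressed library lay above every control, and within 8 h and within 12 h the libraries differed by more than 10 times. The mean was 1048 ± 337 CPM at 24 h, against 0.480 ± 0.417 CPM in control, which rests on 20 counts, and 172 ± 157 CPM at 12 h (SD, n = 3 each). Against control the gene had risen before 24 h: its log2 fold change was 5.72 ± 1.19 (SE) at 4 h, 8.22 ± 1.31 at 8 h and 8.49 ± 1.33 at 12 h (edgeR adjusted p 0.00558, 0.00183 and 0.0021). Without the intermediate libraries the values were 5.74, 8.28 and 8.60 and missed the threshold (edgeR adjusted p 0.0913, 0.064 and 0.079), and limma-voom missed it at 4 h (adjusted p 0.066).

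MS.gene004813 (coding length 213 nt) stood farthest above the rest of the series. It had 493, 237 and 574 CPM in 24 h replicates 1, 2 and 3, and at most 15.5 CPM, in 12 h replicate 2, in any other library. The controls had 1.19, 1.18 and 2.40 CPM, the 4 h libraries 1.60, 0 and 0.0688 CPM, the 8 h libraries 8.96, 0.198 and 1.44 CPM, and the 12 h libraries 9.18, 15.5 and 1.803 CPM. Before 24 h the stressed libraries overlapped with the controls at each time. No earlier time passed the test against control, with log2 fold changes of -1.37 ± 1.18 (SE) at 4 h, 1.25 ± 1.10 at 8 h and 2.40 ± 1.12 at 12 h (edgeR adjusted p 0.443, 0.485 and 0.206). Its ratio of 14.5 was followed by 7.20 in the next gene.

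**Figure D4:**
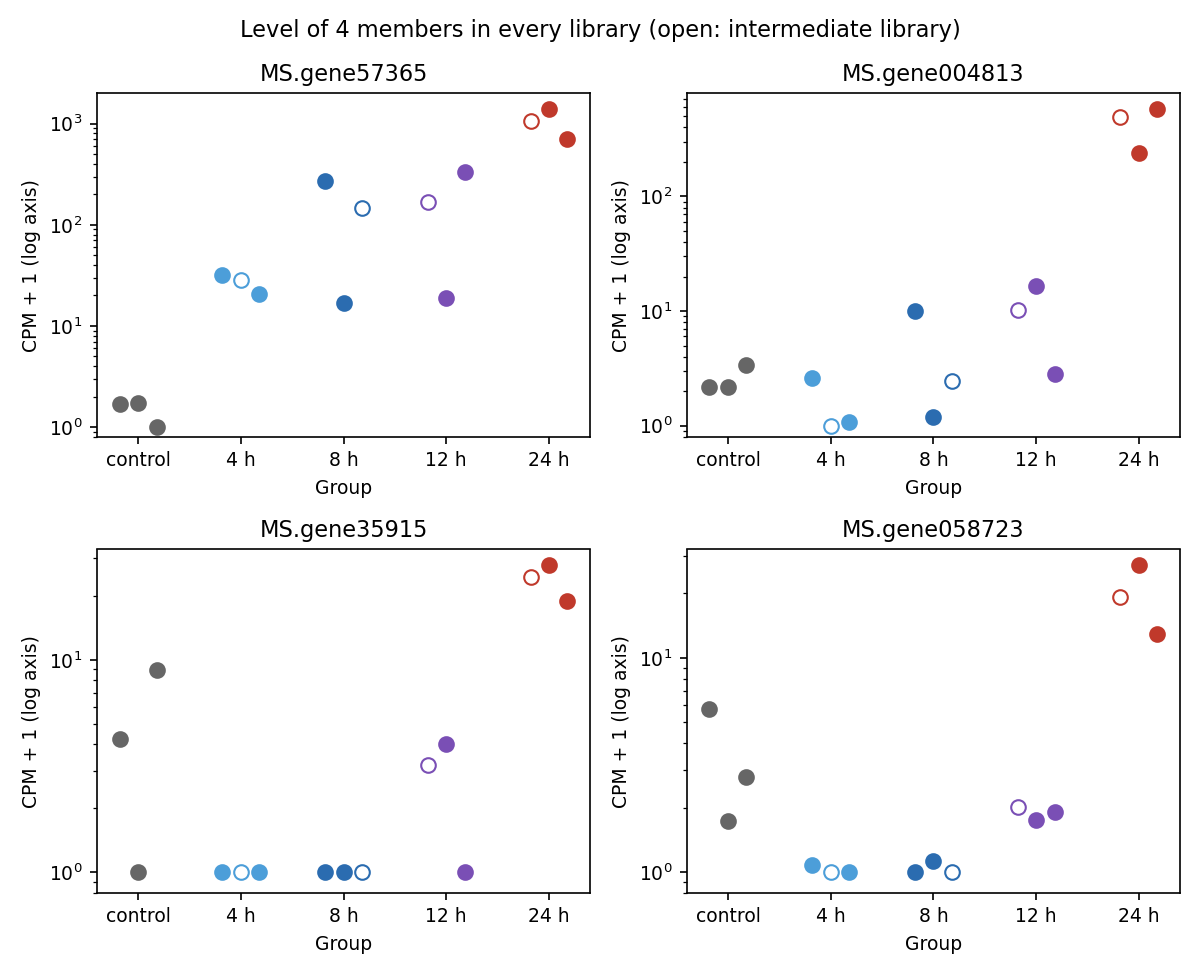
CPM + 1 on a log axis in each library for the 4 genes named in the text, by group, with open points for the intermediate libraries. MS.gene57365 lies above control in every stressed library, MS.gene004813 overlaps with control until 24 h, and MS.gene35915 and MS.gene058723 are at or near 0 CPM at 4 h and 8 h and between 11.9 and 27.0 CPM at 24 h.

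Away from 24 h most of the 102 genes were low but detected. In control 11 had no count in the 3 libraries together, and so had 22 in the 4 h libraries, 8 in those of 8 h and 4 in those of 12 h, while each of the 102 had a count in at least 1 of the 12. A mean below 1 CPM was found for 59 genes (control), 50 (4 h), 36 (8 h) and 30 (12 h). Only 13 stayed below 1 CPM in each of the 12 libraries, and 42 had a count in every one of them. At the other end, 27 reached 20 CPM in some library other than 24 h, and 17 had a mean of at least 5 CPM in control. Genes silent in control and genes already active in control were thus both present.

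Among the genes with the most reads, the third in order (339 nt) was active in control. It had 664, 393 and 974 CPM in 24 h replicates 1, 2 and 3, against 148, 136 and 129 CPM in the control libraries. In 4 h replicate 3 it had 0.688 CPM, while 4 h replicate 1 had 139 CPM. The sixth (300 nt) was the steadiest of this kind, with 360, 378 and 394 CPM at 24 h, against 169, 128 and 105 CPM in control, and 61.6 to 146 CPM in the 9 libraries between. The fourth (4224 nt) had 583, 637 and 601 CPM at 24 h, against 96.8, 33.9 and 55.5 CPM in control, and was low at 4 h with 5.80, 9.08 and 9.84 CPM. Its 4 h libraries lay below all controls, and the gene was called lower at 4 h (log2 fold change -2.88 ± 0.72, SE, edgeR adjusted p 0.0142). Without the intermediate libraries this call was lost. A gene with no count in control, the 20th in order (1458 nt), had 105, 105 and 116 CPM at 24 h, 44.4, 0.593 and 20.9 CPM at 8 h, and 10.2, 1.67 and 21.7 CPM at 12 h.

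Whether the 102 genes had moved before 24 h was asked next, since the rule set only an upper limit for those libraries and not their order. The group with the next highest mean was 12 h for 38 genes, 8 h for 37, control for 16 and 4 h for 11, or 37.3%, 36.3%, 15.7% and 10.8%. Among all 25725 genes with at least 5 CPM at 24 h, the highest of these 4 groups was 12 h in 25.4%, 8 h in 24.3%, control in 26.1% and 4 h in 24.3%. Without the intermediate libraries the 102 genes divided into 37 for 12 h, 42 for 8 h, 15 for control and 8 for 4 h. In 8 genes the mean was higher at each step than at the one before. On the scale of log2(mean CPM + 1) the median difference from control was 0 at 4 h, 0.45 at 8 h and 0.38 at 12 h for the 102 genes, beside -0.04, 0.08 and 0.14 for genes with at least 5 CPM at 24 h and -0.15, -0.09 and 0.01 for the 68605 genes tested. A mean (CPM + 1) at least 2 times that of control was found in 20 of the 102 at 4 h, 36 at 8 h and 34 at 12 h (19.6%, 35.3% and 33.3%), beside 20.5%, 21.6% and 19.8% of genes with at least 5 CPM at 24 h. A mean at least 2 times lower than control was found in 11, 4 and 3 of the 102 (10.8%, 3.92% and 2.94%), beside 23.1%, 19.3% and 15.6% of such genes. The rule bounds the control and earlier levels of the 102 from above, but not those of all such genes. Nothing is therefore read from these shares and medians beside each other. Mean CPM + 1 at 24 h was 2.85 to 44.4 times that at 12 h, with a median of 6.58, where the rule asks for at least 2 times the highest library.

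Each earlier time was compared with control by edgeR's quasi-likelihood test over all 68605 genes passing the filter on low counts. All 102 genes passed, 19 of them through the 24 h libraries, since 83 passed in a fit without those libraries. The test took the spread of each gene from all 15 libraries. Its p-values thus depend in part on the 24 h libraries, where the rule favours agreement. The rule also bounds the control and earlier levels of these genes from above, which limits how far a gene can lie below or above control. For that reason nothing is read from the shares of the 102 beside those of all genes. At 4 h 19 of the 102 were called higher (18.6%; 6.43% of all genes tested) and 10 lower (9.8%; 12.5% of all). At 8 h 24 were called higher (23.5%; 5.11% of all) and 3 lower (2.94%; 7.29% of all), and at 12 h 20 were called higher (19.6%; 2.92% of all) and 2 lower (1.96%; 4.36% of all). The 3 comparisons share the control libraries. The fit without the 24 h libraries called 13, 17 and 16 higher at 4, 8 and 12 h (5.6%, 3.97% and 2.3% of all genes) and 2, 2 and 0 lower (11%, 7.03% and 3.82% of all). At 12 h, 34 of the 83 had an unadjusted p below 0.05 in that fit, in either direction, beside 23% of all genes.

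The calls were lost, while the differences in level moved little, without the 4 intermediate libraries. On the log2(mean CPM + 1) scale the median difference from control of the 102 genes was then 0 at 4 h, 0.42 at 8 h and 0.40 at 12 h. For genes with at least 5 CPM at 24 h it was -0.05, 0.06 and 0.13. Mean CPM + 1 was at least 2 times that of control in 20, 37 and 37 of the 102 (19.6%, 36.3% and 36.3%), beside 20.5%, 21.4% and 19.9% of such genes. It was at least 2 times lower than control in 11, 4 and 3 (10.8%, 3.92% and 2.94%), beside 23.5%, 19.6% and 15.8%. These comparisons were added after the data were seen. On these 11 libraries, edgeR, the only tool run there, called 0 of the 102 at each time, where 32, 11 and 0 of 71665 genes were called at 4, 8 and 12 h (0.0447%, 0.0153% and 0%). At an unadjusted p below 0.05 there were 33, 35 and 35 of the 102, beside 18.1%, 13.9% and 10.9% of all genes. With single libraries left out, the number called higher at 4 h was 12 without control replicate 1, and 11 in the absence of either control replicate 2 or 4 h replicate 2, fits that called 3.24%, 3.31% and 2.72% of all genes higher. The number called higher at 8 h was 15 without control replicate 1, control replicate 2 or 8 h replicate 1 (2.40%, 2.24% and 3.37% of all genes), and at 12 h it was 12 without control replicate 1 or 2 (0.999% and 0.932% of all). The number called lower at 4 h was 4, 6 and 6 without control replicates 1, 2 and 3, 6, 3 and 5 without 4 h replicates 1, 2 and 3, 6 without 8 h replicate 3 or 12 h replicate 1, and 5 without 24 h replicate 1, where 4.25% to 9.27% of all genes were called lower. The number called lower at 8 h was 1 without 8 h replicate 3 (1.87% of all). At 12 h 0 were called lower without control replicate 1 or 12 h replicate 1 or 3, where 40 to 43 of the 102 and 17.3% to 20.7% of all genes had an unadjusted p below 0.05 in either direction, and 1 without control replicate 2 or 3, 4 h replicate 2, 8 h replicate 3, 12 h replicate 2 or any 24 h library. Of all genes, 0.773% to 2.11% were called lower in the first 3 of these fits and 1.91% to 3.85% in the others.

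**Figure D5:**
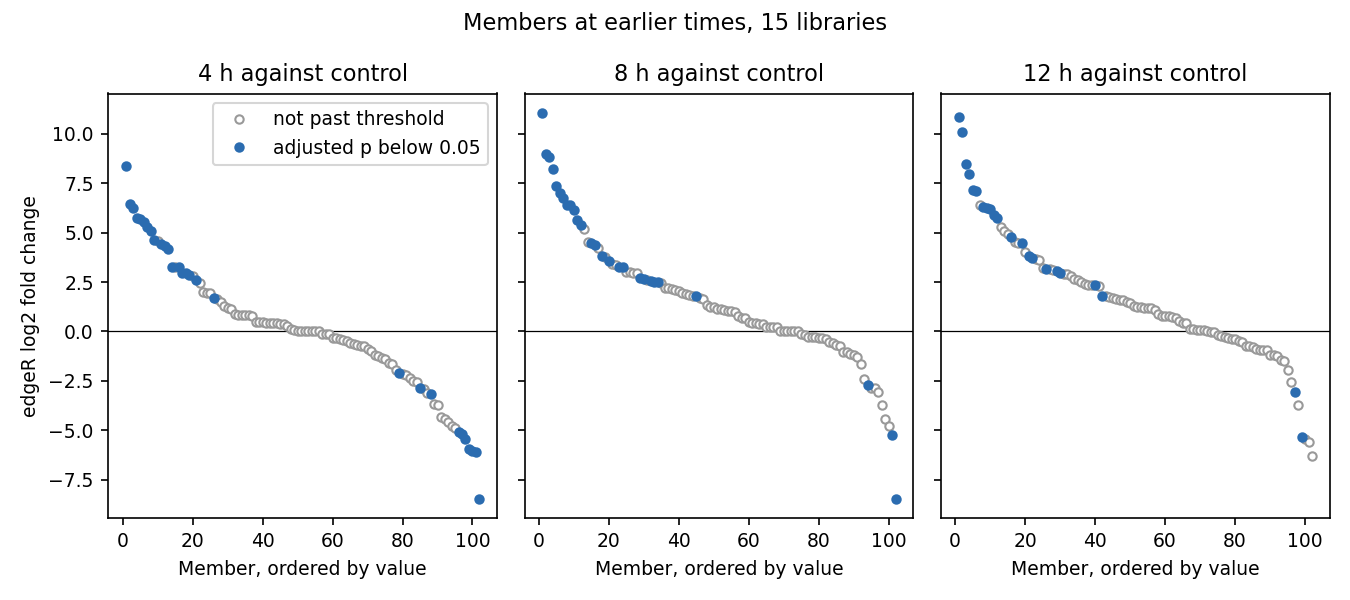
edgeR log2 fold change of each of the 102 genes against control at 4, 8 and 12 h with all 15 libraries, ordered by value within each panel, with filled points for an adjusted p below 0.05. Called higher and lower were 19 and 10 genes at 4 h, 24 and 3 at 8 h, and 20 and 2 at 12 h. Of all genes tested, 6.43% and 12.5%, 5.11% and 7.29%, and 2.92% and 4.36% were called. The rule bounds the levels of the 102 from above, so nothing is read from these counts beside those shares.

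With all 15 libraries, edgeR called 10, 3 and 2 of the 102 genes lower than control at 4, 8 and 12 h. These are 9.8%, 2.94% and 1.96%, beside 12.5%, 7.29% and 4.36% of all genes tested. As the rule limits how far a gene can lie below control, nothing is read from these shares beside each other. Without the intermediate libraries 0 were called lower at each time, in a fit that called 0.0237%, 0.00279% and 0% of all genes lower. The 2 genes described next were picked from the called ones for the strongest average decrease before 24 h, so they are extremes. MS.gene35915 (coding length 1941 nt) had no count in any library of 4 h or 8 h. It had 23.5, 27.0 and 17.8 CPM in 24 h replicates 1, 2 and 3, against 3.23, 0 and 7.99 CPM in the control libraries, and 2.19, 3.03 and 0 CPM at 12 h. Since control replicate 2 was also at 0, the 4 h and 8 h libraries do not lie wholly below the controls. Over pooled counts the level was at least 40.4-fold lower at 4 h and at least 42.3-fold lower at 8 h than in control, against a floor of 3 counts over the group (edgeR adjusted p 0.0278 and 0.0353). These bounds were 19.2 at 4 h and 20.1 at 8 h without control replicate 3, and 61.8 and 64.7 without control replicate 2. Leaving out 4 h replicate 1 or 3 gave 25.2 or 23.5 at 4 h, and leaving out 8 h replicate 1 or 2 gave 26.5 or 24.7 at 8 h. The gene was called lower in 16 of 24 settings at 4 h and 13 of 24 at 8 h. The call at 4 h was lost without control replicate 3 or any 4 h library (edgeR adjusted p 0.0617 to 0.0752). The call at 8 h was lost without control replicate 1 or 3, any 8 h library, 12 h replicate 1 or 24 h replicate 1 (edgeR adjusted p 0.0510 to 0.0977). Both calls were also lost with limma-voom (adjusted p 0.124 at 4 h and 0.139 at 8 h), without the 24 h libraries (edgeR adjusted p 0.0609 and 0.0740) and without the intermediate libraries (edgeR adjusted p 0.189 and 0.240).

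MS.gene058723 (coding length 645 nt) followed the same course with all controls detected. It had 18.1, 26.2 and 11.9 CPM in 24 h replicates 1, 2 and 3, against 4.77, 0.740 and 1.78 CPM in the control libraries. The 4 h libraries had 1 count together and the 8 h libraries 2, and the 12 h libraries had 1.02, 0.758 and 0.901 CPM. Every 4 h and 8 h library lay below every control. Pooled levels were 87.4-fold lower at 4 h than in control (95% Poisson interval 15.3 to 3486) and 45.7-fold lower at 8 h (12.3 to 383), intervals that cover counting error only. The edgeR adjusted p was 0.00361 at 4 h and 0.0063 at 8 h, and 0.122 and 0.185 without the intermediate libraries. Control replicate 1 held 68 of the 98 control counts, and without it the ratios were 42.1 and 22.0. The ratio at 4 h was 50.9 without 4 h replicate 3, and at least 18.2-fold without 4 h replicate 1, which held the only count. The ratio at 8 h was 28.6 without 8 h replicate 1, and at least 17.8-fold without 8 h replicate 2, which held both counts.

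The libraries of 8 h and of 12 h differed among themselves at part of these genes, mostly in 1 direction. In 8 h replicate 1, CPM + 1 was at least 2 times that of 8 h replicate 2 in 30 of the 102 genes, and the reverse held in 9. In 12 h replicate 3 it was at least 2 times that of 12 h replicate 2 in 44 genes, and the reverse held in 6. Across all genes with at least 5 CPM at 24 h the directions were balanced, with 20.7% and 20.5% at 8 h and 23.9% and 24.4% at 12 h. At 4 h replicate 3 stood at least 2 times above replicate 1 in 20 of the 102 (19.6%, beside 24.4% of all such genes), with the reverse in 14 (13.7%, beside 26.1%). In 21 genes both 8 h replicate 1 and 12 h replicate 3 were raised in this way, and in 49 neither was. These 21 had a median of 0.239 CPM in control, and 15 of them had a control mean below 1 CPM. The library with the highest level outside 24 h was 8 h replicate 1 for 27 genes and 12 h replicate 3 for 27, and no other library was so for more than 8. For the highest library, and for the genes raised in both or neither, shares over all genes were not computed. The split by library was chosen after values were seen. The rule bounds the 8 h and 12 h levels of the 102 from above, but not those of all such genes. The counts for the 102 are therefore a description, and nothing is read from them beside the shares of all such genes.

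The coding lengths of the 102 genes, which the rule did not use, had a median of 1091 nt and quartiles of 666 and 1355 nt. For all genes with at least 5 CPM at 24 h the median was 1173 nt and the quartiles 732 and 1785 nt. The shortest of the 102 was 213 nt and the longest 4224 nt, and 9 were under 400 nt (8.82%, beside 6.75% of all). Of the 102, 20 shared their exact coding length with another of the 102, over 9 lengths. The length shared by most was 1458 nt, in 4 genes. Of these, 3 were nearly absent in control and carried 160 to 235, 109 to 147 and 105 to 116 CPM at 24 h, while the fourth had 11.4 to 15.04 CPM at 24 h, against 0.355 to 1.89 CPM in control. In a tetraploid outcrossing plant, alleles and paralogs can share reads, and whether genes of equal length are copies of one another was not tested.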

How the data were processed

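The authors deposited raw read counts per gene and FPKM for the same 164632 IDs, per the file headers, in 15 libraries. In the 108456 genes with a count the FPKM values are the counts over the library total and 1 fixed length per gene. The sources used here give no aligner, counting tool, strand setting or genome build. Groups and replicate numbers came from the titles. The control's own treatment label names alkaline stress as well, and the title decided.

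CPM was the count over the library total. Counts were tested in R 4.3.3 with edgeR 4.0.16 (filterByExpr, TMM, quasi-likelihood, 5 groups, two-sided, Benjamini-Hochberg over 68605 genes, threshold 0.05). That step was also run on simulated counts with independent replicates and a fixed spread. How it acts on libraries that are not independent was not tested. Alternatives used DESeq2 1.42.0, limma-voom (limma 3.58.1), other scalings, filters, rule limits and samples. Floors and Poisson intervals cover counting error alone, as no molecular identifiers mark separate molecules. The genes, lists and the rule for the 4 named IDs (highest mean CPM at 24 h, largest ratio, and the 2 lowest mean log2 fold changes over 4, 8 and 12 h among genes called lower) were chosen with earlier results of these data known. The rule and the next highest group without intermediate libraries, the split by library at 8 h and 12 h and the shared lengths were chosen after values were seen.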

Additional observations from a re-analysis of the deposited data

Results flagged for a closer look

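MS.gene058723 moved in opposite directions from control at different times of stress. Its 24 h libraries lay above every control, with 18.1, 26.2 and 11.9 CPM, against 4.77, 0.740 and 1.78 CPM in control, while all 3 libraries of 4 h and all 3 of 8 h lay below every control, with at most 2 counts in any of them. On the scale of log2(mean CPM + 1), 24 h stood 4.27 above 4 h and 4.24 above 8 h. The difference between the times was not tested, and the side of 24 h follows from how the gene was chosen.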

How the results depend on the processing

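The number of genes meeting the rule was 277 at a ratio of 1.5, 37 at a ratio of 3 76 with a minimum of 10 CPM, and 101 to 128 under the other settings of scale and minimum; with each library left out it was 102 to 308. Without the intermediate libraries, a choice made after seeing the data for the other groups, the rule for 8 h gave 48 genes instead of 28. Calls among the 102 genes (higher and lower at 4, 8 and 12 h: 19 and 10, 24 and 3, 20 and 2) all fell to 0 without the intermediate libraries. Of all genes tested, 6.43% and 12.5%, 5.11% and 7.29%, and 2.92% and 4.36% were called with all 15 libraries. Without the intermediate ones the shares of all genes were 0.0209% and 0.0237%, 0.0126% and 0.00279%, and 0% and 0%. With limma-voom the calls among the 102 were 12 and 6 at 4 h (6.39% and 13% of all genes tested) and 1 lower at 12 h (5.5% of all). DESeq2 gave 7 lower at 8 h (12.6% of all), and 31 higher and 5 lower at 12 h (6.5% and 8.68% of all). Without the 24 h libraries 2 were lower at 4 h (11% of all) and 0 at 12 h (3.82% of all). With each library left out the calls ran from 11 to 21 higher and 3 to 11 lower at 4 h, 15 to 29 and 1 to 4 at 8 h, and 12 to 25 and 0 to 3 at 12 h. Of all genes, these fits called 2.72% to 6.65% higher and 4.25% to 12.9% lower at 4 h. The shares were 1.98% to 5.9% and 1.87% to 8.03% at 8 h, and 0.812% to 3.54% and 0.773% to 5.03% at 12 h. With the replicate number as a block (replicate block) 3 genes were called lower at 4 h and 1 at 12 h (9.63% and 3% of all). In that fit 18, 20 and 18 were called higher at 4, 8 and 12 h (4.74%, 3.73% and 1.89% of all). There MS.gene35915 missed the threshold (edgeR adjusted p 0.0571 at 4 h and 0.0724 at 8 h). Deviations from the group means of libraries with 1 number had correlations of -0.05 to 0.16 over 27967 genes, and 2 of 30 pairs exceeded 0.1. Libraries of different numbers were not set beside them, so whether the numbers pair the libraries is not settled by these values. MS.gene004813 at 8 h had a log2 fold change of -0.0701 with limma-voom and of -1.02 to 1.84 with each library left out, and MS.gene35915 at 12 h of -1.92 to 0.0193 (without control replicate 3), none of them past the threshold. For each change whose reason is not given, the cause was not tested. Fold changes of genes with few counts in a group are limited by depth.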
